A study of Mus musculus with 2 samples.

Results

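Hepcidin and the liver genes that report signalling by bone morphogenetic proteins (BMPs) and their SMAD factors were followed here in a mouse that lacks Tmprss6 and in a control mouse. The set held 10 genes of 18193 named on the array, the hepcidin genes Hamp and Hamp2, the inhibitor of DNA binding genes Id1, Id2, Id3 and Id4, the inhibitory SMAD genes Smad6 and Smad7, the transcription factor gene Atoh8 and the pseudoreceptor gene Bambi. They were read by 17 of 45101 probe sets, each of which the platform annotation assigns to 1 of these symbols alone. Livers came from male mice of 3 months on a mixed 129Sv/C57BL6 background after an overnight fast, and total RNA was hybridised to Affymetrix whole-genome mouse arrays. The control group was 1 animal labelled only as control, and the other was 1 animal of genotype Tmprss6-/-, made by gene targeting. Whether the control was a wild-type littermate, and which part of Tmprss6 was removed, is not stated in those labels. Each genotype has 1 array, so the design gives neither a replicate error nor a test, and every difference is one between these 2 livers.

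Hepcidin is a peptide hormone that hepatocytes secrete and that blocks iron release into plasma through the exporter ferroportin. Its transcription is driven by BMP ligands, made largely by liver endothelial cells, which bind a receptor complex with the coreceptor hemojuvelin on hepatocytes and lead to phosphorylated SMAD proteins at the hepcidin promoter. Tmprss6 encodes matriptase-2, a membrane serine protease of hepatocytes that restrains this pathway. The same SMAD proteins drive the Id genes, whose products bind and silence basic helix-loop-helix (bHLH) factors, as well as Smad6, Smad7, Atoh8 and Bambi, of which Smad6, Smad7 and Bambi feed back to dampen the signal. Mice carry a pair of hepcidin genes, and Hamp is the one that encodes the iron hormone.

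The paralogs Hamp and Hamp2 are near-identical in their promoters yet differ at an element through which SMAD proteins are known to act on hepcidin. Their promoters are shown for this reason, and that of Id2 because it holds the same letters as Hamp. RefSeq promoter windows on GRCm38.p6 were found for 7 of the 10 genes, Hamp, Hamp2, Id2, Id3, Id4, Smad6 and Atoh8. Each sequence below is the 250 bases before the start site, 5′ to 3′ on the gene's strand, and bases farther away were not searched. Capitals mark GGCGCC, the core of a BMP-responsive element, the bases of Hamp2 that align to it, and TTCNNNGAA, the form of a STAT site. Hamp lies at chr7:30944030-30944279 on the minus strand, Hamp2 at chr7:30924182-30924431 on the minus strand and Id2 at chr12:25096093-25096342 on the minus strand.
Hamp: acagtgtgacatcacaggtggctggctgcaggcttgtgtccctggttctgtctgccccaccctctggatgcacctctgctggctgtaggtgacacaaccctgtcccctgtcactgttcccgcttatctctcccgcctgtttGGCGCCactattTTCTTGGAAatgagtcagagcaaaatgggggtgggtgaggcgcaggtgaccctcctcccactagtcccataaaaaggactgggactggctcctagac
Hamp2: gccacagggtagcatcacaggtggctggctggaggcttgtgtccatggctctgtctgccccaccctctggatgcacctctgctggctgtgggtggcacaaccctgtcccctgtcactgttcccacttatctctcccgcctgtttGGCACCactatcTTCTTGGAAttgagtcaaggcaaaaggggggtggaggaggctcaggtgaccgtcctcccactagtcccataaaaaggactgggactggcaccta
Id2: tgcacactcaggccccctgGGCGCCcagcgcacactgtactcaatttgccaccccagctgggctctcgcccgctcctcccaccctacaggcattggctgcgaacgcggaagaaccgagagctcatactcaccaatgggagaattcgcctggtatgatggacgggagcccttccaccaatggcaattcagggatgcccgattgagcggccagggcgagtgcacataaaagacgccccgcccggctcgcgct

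The start sites of Hamp and Hamp2 are 19848 bases apart, and 227 of the 250 bases (90.8%) were identical in a global alignment. The STAT form TTCTTGGAA was present in both, beginning 97 bases before the start site of Hamp and 94 before that of Hamp2. GGCGCC began 109 bases before the start site of Hamp, and the aligned stretch of Hamp2, 106 bases before its start, differed by G4A, counted from the first base of the element with the base of Hamp first. GGCGCC, which is its own reverse complement, was found in the windows of Hamp, Id2 and Id4, which is 3 of 7, against 9.59% of all 32851 windows. Those 3 windows were 57.2%, 62.8% and 75.6% G or C, against a median of 52.4% over all windows. The shares were not matched for this content. TTCNNNGAA was found in 2 of 7, both of them hepcidin genes, against 7.02% of all windows, and Hamp alone of the 7 held both forms, as did 0.368% of all windows. GTCT, the SMAD box, was in 5 of 7 on either strand against 82.9%, and the E-box form CANNTG, the site of bHLH factors, in 4 of 7 against 66.2%. CACGTG, a form of E-box that CANNTG includes, was in 1 of 7, that of Atoh8, against 6.02%. These matches describe letters in a window of the reference and not binding.

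The targeted gene was checked first. Its 1 probe set, 1428676_at, read 1868 in control and 88.1 in Tmprss6-deficient liver, which put Tmprss6 at the 3rd lowest ratio of 10243 ranked genes. Hepatocyte markers held 11 genes, and all 11 were above the floor on both arrays, with Alb (albumin) at 29345 and 27850.5 and Ttr (transthyretin) at 24521 and 24403. Of these 11, 1 was higher by 1.5-fold or more, Hnf4a, and 0 were lower, with a median log2 ratio of -0.075. Over all ranked genes, 7.51% were higher and 8.42% lower by that much. Signals are MAS5 intensities, which rise with transcript abundance but cannot be compared between probe sets. The floor was 17.8, the median signal of the arrays, and ratios were taken after it. An array gives no read depth, and the number of arrays limits the precision.

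On the brightest probe set of each, 9 of the 10 genes were at least 1.5-fold higher in the Tmprss6-deficient liver, from 1.53-fold for Smad7 to 2.79-fold for Hamp2, and Bambi was 2.74-fold lower. Among 10243 named genes with both signals at or above the floor, 7.51% were higher and 8.42% lower by that much. At 2-fold, 6 of the 10 were higher and 1 was lower, against 1.99% and 2.41%. The median log2 ratio of the 10 genes was 1.22, and their mean was 0.91, while the median of all ranked genes was -0.0098. Counted by probe set, 15 of the 17 passed the floor on both arrays, of which 8 were higher by at least 2-fold, 1 was lower and 6 lay within 2-fold. Over all 19894 such probe sets, 2.53% were higher and 2.09% lower by that much. The genes were listed as known members of one pathway with earlier results of these arrays in view, so their count is a description.

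**Figure D1:**
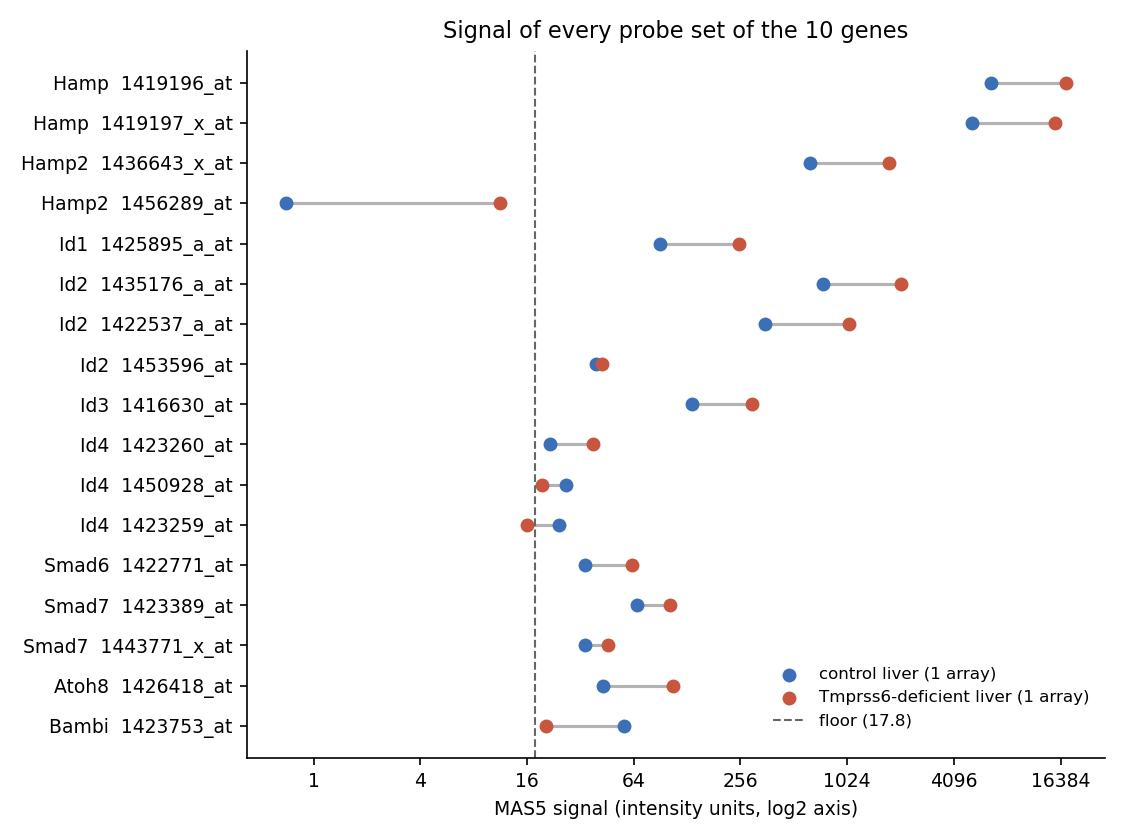
MAS5 signal (intensity units, log2 axis) of each of the 17 probe sets in the control liver (blue) and the Tmprss6-deficient liver (red), 1 array each, with the floor of 17.8 dashed. Hamp, Hamp2, Id1, Id2, Id3, Smad6, Smad7 and Atoh8 had the red point to the right on each of their probe sets. The dimmer set of Hamp2 lies below the floor in both livers. Bambi had the red point to the left, and the probe sets of Id4 were split.

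Hamp was higher on both of its probe sets, at signals well above the floor, and both rest on the same reference transcript. On probe set 1419196_at, Hamp read 6593 in control and 17531 in Tmprss6-deficient liver, a log2 ratio of 1.41. On 1419197_x_at it read 5207 and 15241, a log2 ratio of 1.55. These ratios differ from each other by 0.14, against a spread SD of 0.16 for probe sets of one gene at signals above 1024 (263 genes), the only error the data give, which leaves out variation between animals. Each of the 2 ratios was thus over 8 times that spread, at 8.65 and 9.50 SDs. Among 1652 probe sets with a mean signal above 1024, 10 had a ratio as high as the first and 6 as high as the second, counting those sets themselves.

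Hamp2, the paralog next to Hamp, was read by a pair of probe sets with unlike results. Set 1436643_x_at read 632.5 in control and 1767 in Tmprss6-deficient liver, a log2 ratio of 1.48 against the same spread of 0.16. Set 1456289_at read 0.7 and 11.3, below the floor on both arrays, so it gives no ratio. The suffix _x_at marks sets in which some probes can also bind transcripts of other genes, and the set without that suffix gave no measurable Hamp2 signal in either liver. The ratio on 1436643_x_at lay between those of the Hamp sets, and whether it reads Hamp2 or Hamp was not tested. The Hamp set 1419197_x_at carries the same suffix, and whether it also reads Hamp2 was not tested. Hamp2 is counted among the 9 higher genes on this set alone.

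The Id genes encode proteins with a helix-loop-helix but no DNA-binding region. Id1, the usual liver readout of BMP signalling, had 1 probe set, 1425895_a_at, that read 89.7 in control and 249.8 in Tmprss6-deficient liver. Its log2 ratio of 1.48 was 4.27 times the spread SD of 0.35 for signals from 64 to 256 (1605 genes). Id3 read 135.6 and 296.8 on 1416630_at, a log2 ratio of 1.13 or 3.26 times the same spread. Both genes were thus higher by more than the spread between probe sets, each on a single set.

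Id2 was read by 3 probe sets, all above the floor on both arrays. Set 1435176_a_at read 747.3 in control and 2054.5 in Tmprss6-deficient liver, and 1422537_a_at read 352.7 and 1046.5. Their log2 ratios were 1.46 and 1.57, which differ by 0.11. The third set, 1453596_at, read 39.4 and 42.5, a log2 ratio of 0.11 against a spread SD of 0.44 at signals from the floor to 64 (1775 genes). The brighter sets thus pointed the same way with nearly the same size, and the dim set showed little difference. Each of the 3 rests on its own accession. On the dim set alone, the only one without the _a that marks sets shared by transcripts of a gene, Id2 would not be called higher.

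Id4 was dim in both livers and its 3 probe sets did not share a direction, although all 3 rest on the same accession. Set 1423260_at read 21.6 in control and 37.7 in Tmprss6-deficient liver, a log2 ratio of 0.80. Set 1450928_at read 26.4 and 19.3, a log2 ratio of -0.45, and 1423259_at read 24.2 and 15.9, above the floor in the control only and at least 1.36-fold lower. The first ratio was 1.81 times and the second 1.02 times the spread SD of 0.44. With the third set at its bound, the mean over the 3 sets was -0.031 on the log2 scale, so the direction for Id4 turns on which set is read. Without a call for Id4, 8 of the other 9 genes were higher.

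**Figure D2:**
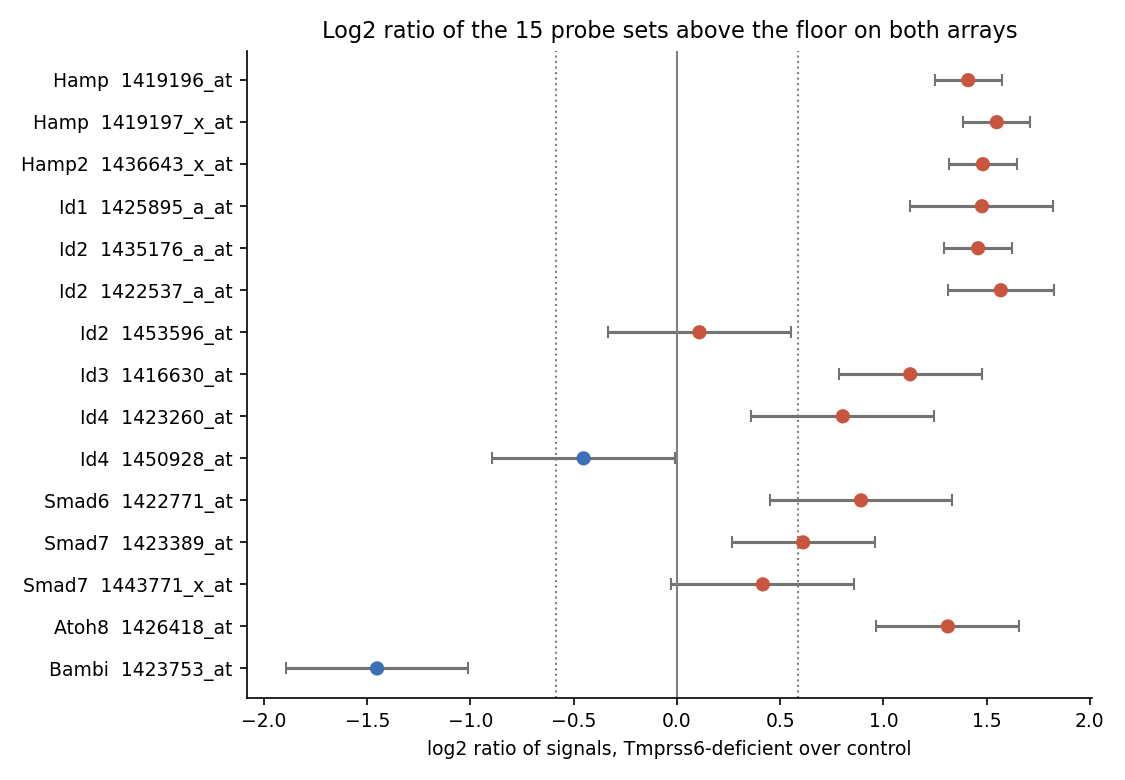
Log2 ratio of signals, Tmprss6-deficient over control, for the 15 probe sets that passed the floor on both arrays. Bars are 1 SD of the spread between probe sets of one gene at that signal, not an error between animals, and dotted lines mark 1.5-fold. The sets of Hamp, Hamp2, Id1, Id3 and Atoh8 and the brighter sets of Id2 lie above 1, Bambi lies at -1.45, and Id4 has a set on each side of 0.

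The inhibitory SMADs, which block receptors and mark them for degradation, had smaller ratios. Smad6 read 33.9 in control and 62.9 in Tmprss6-deficient liver on 1422771_at, a log2 ratio of 0.89 or 2.01 times the spread SD of 0.44. Smad7 read 66.9 and 102.2 on 1423389_at, a log2 ratio of 0.61 or 1.77 times the spread SD of 0.35. Its second set, 1443771_x_at, read 34.1 and 45.5, a log2 ratio of 0.42 or 0.94 times the spread at that signal. Both sets of Smad7 were higher, and the brighter one lay just past 1.5-fold. It was under 1.5-fold with the arrays scaled to the median (0.55), with quantile normalization (0.58), with loess (0.57) and with the floor as a pseudocount (0.50).

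Atoh8, a bHLH factor of the liver that BMP signalling and iron are known to induce, read 43.0 in control and 106.8 in Tmprss6-deficient liver on its 1 probe set, 1426418_at. The log2 ratio of 1.31 was 3.79 times the spread SD at that signal. Bambi encodes a receptor-like protein without a kinase that competes with BMP receptors, and it went the other way. It read 56.1 in control and 20.5 in Tmprss6-deficient liver on 1423753_at, a log2 ratio of -1.45 or 3.28 times the spread. The Tmprss6-deficient signal of Bambi is near the floor, and with the floor at the 70th percentile of signals only a bound remained, -0.085 on the log2 scale. Only 71 of 10243 genes had a ratio as low as that of Bambi, counting Bambi.

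Beside all ranked genes, 5 of the 10 genes were among the 100 highest ratios. Hamp2 ranked 54th, Id1 55th, Id2 56th, Hamp 61st and Atoh8 77th of 10243. Id3 ranked 139th, Smad6 269th, Id4 382nd and Smad7 700th. The log2 ratios of the first 4, from 1.41 to 1.48, lie closer together than the spread of 0.16, so their order carries no information. Ratios scatter less at high signal, and 13 of 1029 genes above 1024 (1.26%) were higher by 2-fold or more. Hamp, Hamp2 and Id2 were 3 of those 13. From the floor to 64, where Smad6, Id4 and Bambi lie, 12.5% of genes were at least 1.5-fold higher and 13.1% at least 1.5-fold lower, so differences of that size are common there.

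**Figure D3:**
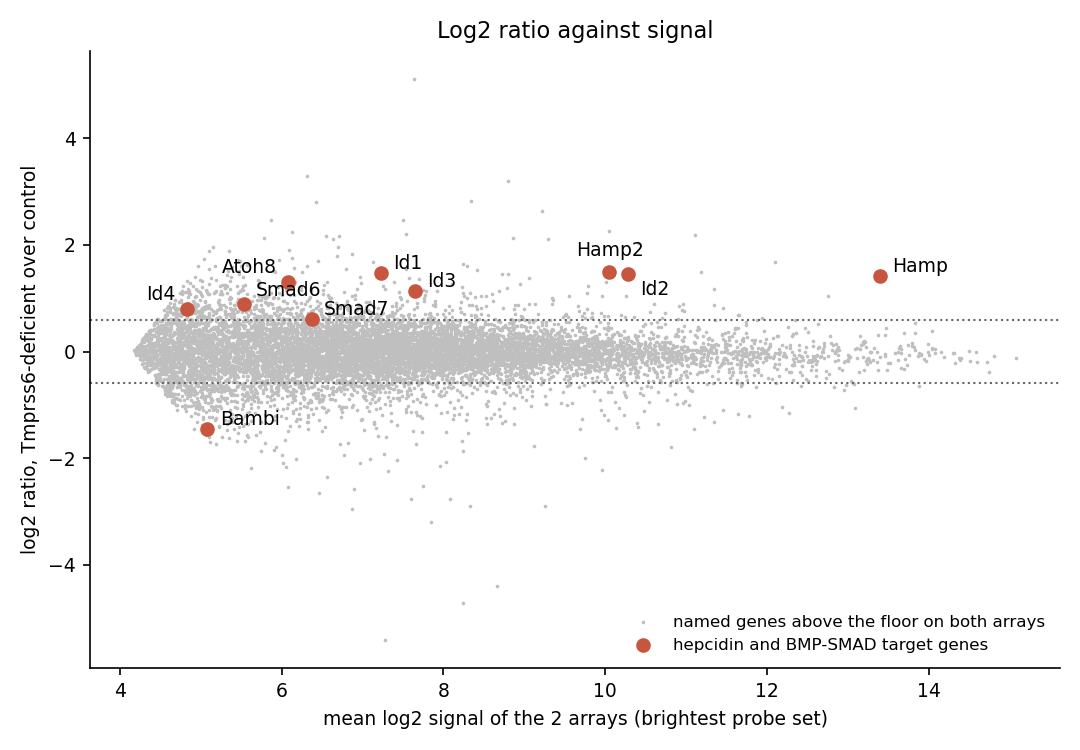
Log2 ratio, Tmprss6-deficient over control, against the mean log2 signal of the 2 arrays for 10243 named genes (grey), 1 point per gene on its brightest probe set, with the 10 genes in red and dotted lines at 1.5-fold. Hamp stands among the bright genes toward the right, with no other gene within 2-fold of its signal at so high a ratio. Id4, Smad6 and Bambi lie where grey points spread widely.

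Genes with a pattern like that of Hamp were sought among the 166 other genes whose mean signal was within 2-fold of that of its brighter probe set, by the nearness of their log2 ratio over these 2 arrays. None of the 166 had a ratio as high. The nearest was Fgl1, a hepatocyte-secreted fibrinogen-like protein gene, which read 4796.5 in control and 9853 in Tmprss6-deficient liver, a log2 ratio of 1.04, and it was the only 1 of the 166 higher by 1.5-fold or more. Next came Apoa4, an apolipoprotein gene (0.54), Insig2, a regulator of sterol synthesis (0.52), Lrg1, an acute-phase glycoprotein gene (0.45), and Slc25a47, a mitochondrial carrier gene (0.45). With 2 arrays this likeness is a single difference, so nothing more can be said of shared behaviour.

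Genes that carry the signal to these targets were read next. Over BMP family ligands, receptors and coreceptors, SMADs with their cofactors, and secreted antagonists, 46 genes of 57 named were above the floor on at least 1 array. At 1.5-fold, 2 of these 46 were higher and 5 lower, with a median log2 ratio of 0.016. Over all ranked genes, 7.51% were higher and 8.42% lower by 1.5-fold. Genes above the floor on 1 array enter these counts and medians at their bound.

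Of 11 measured ligands, 1 was higher and 1 was lower. Bmp6, the ligand that rises with liver iron, read 45.0 in control and 24.3 in Tmprss6-deficient liver, a log2 ratio of -0.89 or 1.85-fold lower. Its 1 probe set lies in the range from the floor to 64. There the spread SD is 0.44 and 13.1% of genes were at least 1.5-fold lower. Bmp2, another ligand needed for hepcidin expression, read 269.3 and 224.3, and Gdf2, which encodes BMP9, read 167.4 and 201.5. Bmp5 had log2 ratios of 0.58 and -0.088 on its 2 sets above the floor on both arrays, and another was above it in Tmprss6-deficient liver only, with a bound of 0.34. Inhba, an activin subunit gene, was the ligand counted as higher, at least 2.39-fold over a control signal under the floor. Inhbb, another activin subunit gene, had a log2 ratio of 0.49 on its brightest set, and its other set read 3.6 and 53.9, with a bound of 1.60.

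Of 12 measured receptors and coreceptors, 0 were higher and 2 were lower. Acvr1, which encodes the type I receptor ALK2, was 1.54-fold lower on its brightest set, with the other 2 measured sets higher (0.77 and 0.34), so its probe sets disagreed. Acvr2b, a type II receptor gene, read 36.4 and 21.4 and was 1.70-fold lower, with another set above the floor in Tmprss6-deficient liver only. The log2 ratio was -0.52 for Bmpr1a, the gene of the type I receptor ALK3, and -0.16 for Bmpr2. Hjv, which encodes hemojuvelin, read 594 and 683.7, and its 2 sets had ratios of 0.20 and 0.67. Ratios were -0.24 for Tfr2, -0.11 for Hfe and -0.57 for Neo1, each with sets in both directions.

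Of 14 measured SMADs and cofactors, 0 were higher and 1 was lower. The BMP-responsive Smad1 read 255.9 in control and 328 in Tmprss6-deficient liver, and its 3 sets had log2 ratios of 0.36, 0.39 and 0.33. Smad5 read 91.0 and 128.4, with 0.50 and 0.63 on the 2 sets above the floor on both arrays and a bound of -0.40 on another, above it in control only. The common partner Smad4 read 696.1 and 654.2. Smad2, which serves the TGF-beta and activin branch, was 1.96-fold lower (112.1 and 57.2), on both of its sets. Of 9 measured antagonists, Fst (follistatin) was at least 1.83-fold higher and Fstl1 1.68-fold lower, and the other 7 lay within 1.5-fold.

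**Figure D4:**
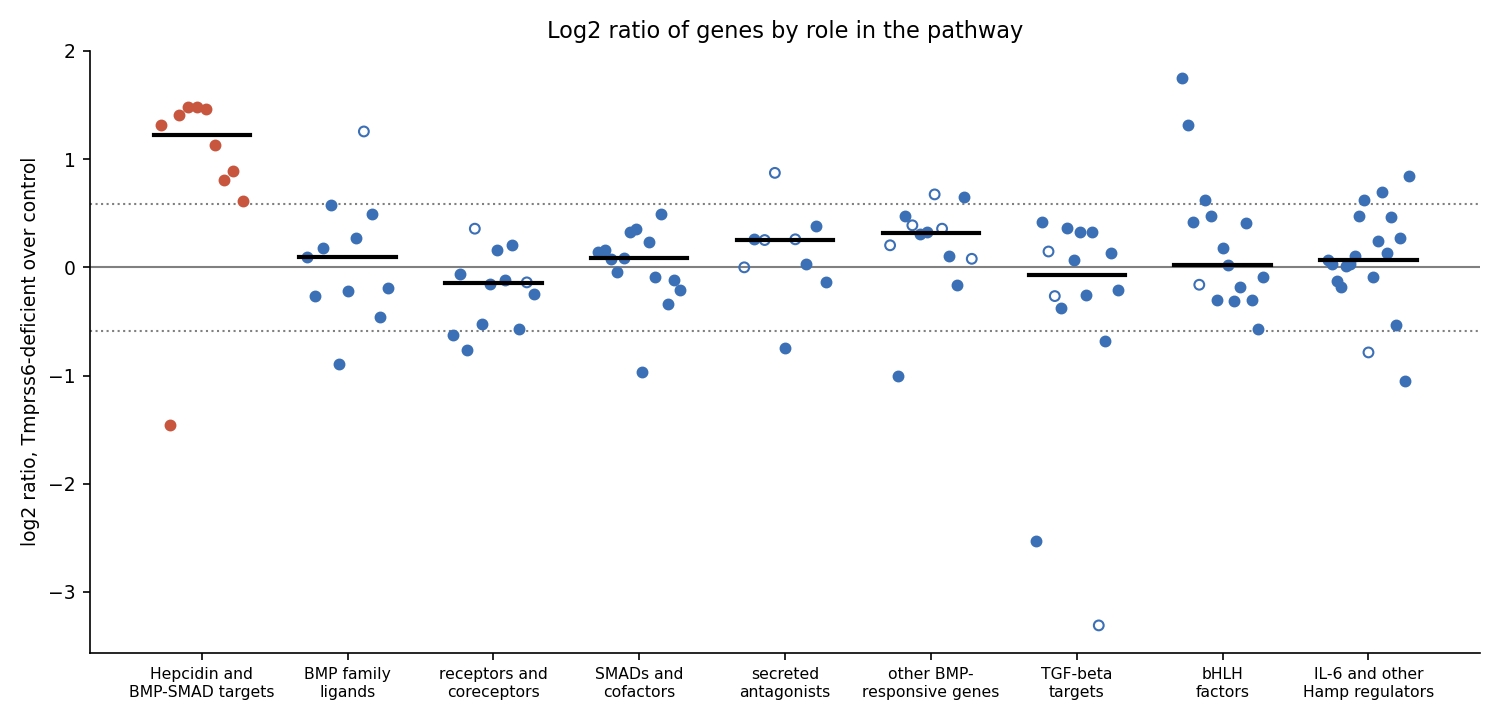
Log2 ratio, Tmprss6-deficient over control, for each measured gene by role, 1 point per gene on its brightest probe set, with open points for genes above the floor on 1 array only (a bound), black bars for medians and dotted lines at 1.5-fold. The 10 hepcidin and BMP-SMAD target genes (red) have a median of 1.22 with Bambi below, and the medians of the other roles lie between -0.15 and 0.32.

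Other genes known to respond to BMP in some cell types were mostly near the floor. Of 19 on the array, 7 were below it on both arrays and 12 were measured, with 2 higher, 1 lower and a median log2 ratio of 0.32. Tbx3, a T-box factor gene, read 73.0 in control and 114.6 in Tmprss6-deficient liver, with 0.65 and 0.67 on the 2 sets above the floor on both arrays and a bound of -0.22 on another, above it in control only. Msx1 was at least 1.60-fold higher, and Gata2, a factor of blood and endothelial cells, was 2.00-fold lower (36.8 and 18.4). Hes1, Klf10 and Junb had ratios of 0.47, 0.32 and 0.31. The TGF-beta SMAD targets, read for contrast, had 0 higher and 3 lower of 14 and a median of -0.070. The 3 were Acta2, smooth muscle actin, at 514.2 and 89.2, the contractile gene Tagln, at least 9.91-fold lower, and Tgfb1 with its sets in both directions.

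The bHLH partners of ID proteins gave no common direction. Tcf3, Tcf4 and Tcf12, the E protein genes, had log2 ratios of 0.41, -0.30 and -0.31 on their brightest sets, the last with its other 2 sets above the floor on both arrays higher. Of 15 measured bHLH genes, 3 were higher and 0 lower, and these were Atoh8 itself and the clock genes Arntl (38.3 and 128.7) and Clock (189.6 and 292.4). Hepcidin is also driven by interleukin-6 through STAT3. Of 19 measured genes of that route and other known regulators of Hamp, 3 were higher and 2 lower, with a median of 0.065. Stat3 read 601.4 and 1083 (0.85, with 1 of 4 sets in the other direction), the receptor subunit gene Il6st read 450 and 729.5 (0.70), with all 4 sets higher, 1 of them as a bound, and Hnf4a, a hepatocyte factor gene, read 3148 and 4849.5 (0.62), with all 4 sets higher. Socs3, a feedback target of STAT3, read 108.2 and 52.1 on its brightest set, a ratio of -1.05, with the others at -0.0037 and 0.071. Il1b was at least 1.72-fold lower.

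Markers of other liver cell types were read because Id genes are also transcribed in endothelial cells and Bambi in stellate cells. In whole liver, fewer cells of a type and less RNA per cell cannot be told apart. The counts of markers past 1.5-fold are to be read beside the 7.51% of all ranked genes that were higher and the 8.42% that were lower. Signals summed over a list, given below, are ruled by its brightest probe sets and do not measure the amount of a cell type. All 24 endothelial markers were measured, with 4 higher, 3 lower and a median log2 ratio of 0.15. Their summed signal was 3568.5 in control and 3919 in Tmprss6-deficient liver. Lyve1 (32.3 and 152.1) and Plvap (129 and 333.2) had the highest ratios of these, and the 3 lower ones were Clec4g (517.3 and 261.1), Kdr (149.5 and 96.3) and Emcn (29.7 and 12.7, at least 1.67-fold). All 20 stellate markers were measured, with 1 higher, 2 lower, a median of 0.092 and a summed signal of 6029 and 6288. Acta2 was 5.76-fold and Lum 1.51-fold lower. Hhip was 1.68-fold higher on its brightest set, with bounds of 0.048 and -0.56 on others. All 16 Kupffer cell and macrophage markers were measured, with 1 higher, 4 lower and a median of -0.33. Their summed signal was 7161 and 5650, with Clec4f, Vsig4 and C1qb 1.76-fold, 1.72-fold and 1.89-fold lower and Marco 1.76-fold higher.

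Most bile duct, erythroid and white blood cell markers were dim or below the floor. Of 7 bile duct markers on the array, 5 were above the floor, all of them in the control only, and the summed signal was 153.6 and 57.0. Of 9 erythroid markers, 7 were measured with 0 higher and 2 lower, and the summed signal was 887 and 537.6. Alas2, the brightest of them and well above the floor, read 593.1 and 232, which is 2.56-fold lower. Of 17 lymphocyte and neutrophil markers, 11 were measured with 3 higher and 2 lower, and the summed signal was 448.2 and 389. Of 12 pancreas and gut markers, 6 were measured with 0 higher and 2 lower, and Fabp2 (2045 and 2078) held most of the summed signal of 2426.5 and 2358. A list median can hide single markers, as Lyve1 had a log2 ratio of 2.24 and Acta2 one of -2.53. The median of the bile duct list, -0.23, is made of bounds alone. Bounds can only understate the distance from 0, so how far that list lies from 0 is not known. The part of these cell types in the ratios of the Id genes and Bambi was not tested.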

How the data were processed

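The deposited values are intensity signals, for which the submitters' processing notes name MAS5 with no version or settings. The mean signal without the lowest and highest 2% was 100.0 on both arrays, so the authors' values look already scaled. Detection calls were not analysed here, and a floor of 17.8 stands in for them.

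Arrays were scaled to a common 2% trimmed mean, signals were raised to the floor, and log2 ratios are Tmprss6-deficient over control. A gene is read by its probe set of highest mean log2 signal, and 34958 of 45101 probe sets had 1 gene symbol. A probe set above the floor on 1 array gives a bound, taken against the floor ("at least"). The spread compares, within each of 4367 genes, the log2 ratios of its brightest and next brightest measured sets, and is the SD of their differences over the square root of 2, binned by the dimmer set. No test and no p-value was computed.

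The members, the 16 other gene lists and the alternatives were chosen with earlier results of these data known. Named genes are the 10 genes, Tmprss6, up to 6 genes per list with the largest ratios, a short list of pathway genes and the 5 nearest to Hamp. Inhba, Fst, Msx1, Tagln, Emcn and Il1b lie outside this rule and were named after their values were seen. The planned comparison of hepcidin proteins was not made, as no protein table was used here. Promoters were aligned with Biopython 1.88, and the procedure was tested on simulated arrays (Python 3.11.15). Those arrays held changes only in brighter genes, with noise drawn from the spread above. Signals as dim as those of Id4, Smad6, Bambi and Atoh8 were not tried. Alternatives were scaling to the median, none, quantile and loess, a floor at the 30th or the 70th percentile, a pseudocount equal to the floor, the mean over a gene's sets, and sets without a suffix (_a, _s or _x).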

Additional observations from a re-analysis of the deposited data

How the results depend on the processing

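Hamp, Hamp2, Id1, Id3, Smad7 and Atoh8 kept their direction, and moved by less than the probe set spread, under every alternative that gave them a value. Over the 10 genes, 81 of 87 values did so, 5 moved by more and 1 reversed. Many of the 81 could not have moved, so the count overstates how far the ratios were tried. The arrays were already scaled alike, so no scaling left the ratios as they were. The brightest sets all passed the main floor, and the 30th percentile floor changed nothing. A mean over sets cannot change a gene with 1 set, nor can dropping suffixed sets change one read by a set without a suffix. Id4 had a log2 ratio of -0.031 with the mean of all probe sets, since its sets point both ways, and it lay below the floor at the 70th percentile. Id2 moved to 0.11 with sets without a suffix only and to 1.05 with the mean of all sets. Bambi moved to -0.95 with the floor as a pseudocount and to a bound of -0.085 at the 70th percentile floor, where 0 of the genes were called lower. Smad6 and Atoh8 were above that floor in Tmprss6-deficient liver only, with bounds of 0.25 and 1.01. The bound of Atoh8 is counted among the 81. The count of genes higher ranged from 6, with sets without a suffix only, to 9. That setting measured 8 of the 10 genes and brought the median log2 ratio to 0.85, against 1.22, and without Hamp and Hamp2 it was 1.01. Over all genes, 769 were higher and 862 lower by 1.5-fold, against 1444 and 1503 with a 30th percentile floor, 367 and 437 with a 70th percentile floor, and 459 and 537 with the pseudocount. No paired analysis was possible because each group has 1 array, and no replicate could be left out for the same reason. The dim signals of Id4, Smad6 and Bambi, close to background, limit what their ratios show.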
